A study of Mus musculus with 8 samples.

Results

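The genes described here are 45 genes of mitosis and the mitotic spindle, chosen as a list of gene names and grouped by the job each protein does in cell division. Each was found on the array by an exact match of its gene name, and all 45 had at least 1 probe. The array held 27218 named genes, of which 17267 passed the filter on dim probes (a probe had to be well above background on 2 of 2 arrays in some diet group). Of the 45, 44 passed. Ttk, a kinase of the spindle checkpoint, was not well above background on both arrays of any group and has no test.

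RNA came from the livers of C57Bl/6J males, a common inbred strain, taken at 14 weeks of age after a 4 h fast, with 2 single-colour arrays in each of 4 diet groups. Group names give the maternal diet first and the post-weaning diet second. In BD_HF the dams ate a standard breeder diet and the offspring a high fat feed in which fat supplied 60% of the calories. In LF_HF the dams were switched at embryonic day 10.5 to a low fat, vitamin A sufficient diet of defined makeup (12% of calories from fat), and the offspring ate the high fat feed of BD_HF. LF_LF had the defined low fat, vitamin A sufficient diet both before and after weaning, and VAD_VAD had a low fat diet of the same fat content that lacked vitamin A in both periods. All dams were on the breeder diet until their diet was assigned. The labels do not say whether each array is 1 animal, and the p-values therefore measure only a spread between samples that may be technical.

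Mitosis is driven by Cdk1 bound to its cyclins, which start the building of the spindle. The spindle checkpoint holds division back until every chromosome is attached, and the anaphase-promoting complex (APC/C), a ubiquitin ligase, then marks securin and the cyclins for destruction so that the chromosomes part. Most adult hepatocytes are out of the cycle, and transcripts of these genes rise only in cells that are preparing to divide. Many of these genes are held off in resting cells through a short promoter element, the cell cycle genes homology region (CHR), often found together with CCAAT boxes.

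The promoters of 5 of the genes are shown because they carry, or lack, those 2 elements. Each line gives the 150 bases just before the annotated start of transcription, 5′ to 3′ on the strand of the gene, from RefSeq on GRCm38.p6. Capitals mark the CHR letters TTTGAA and the CCAAT box on either strand (TTCAAA and ATTGG when read on the other strand), and Birc5 has neither in this stretch.
Cdc20: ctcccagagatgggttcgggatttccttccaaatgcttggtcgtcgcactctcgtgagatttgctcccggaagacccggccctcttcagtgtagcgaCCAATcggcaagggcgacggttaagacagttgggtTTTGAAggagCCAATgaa
Ube2c: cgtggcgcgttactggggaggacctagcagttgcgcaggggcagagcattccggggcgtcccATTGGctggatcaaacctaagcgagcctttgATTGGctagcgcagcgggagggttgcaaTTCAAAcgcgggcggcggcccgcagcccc
Cdk1: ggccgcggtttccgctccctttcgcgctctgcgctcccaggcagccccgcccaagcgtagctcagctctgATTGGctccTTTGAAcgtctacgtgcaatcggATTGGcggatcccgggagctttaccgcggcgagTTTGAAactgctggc
Kif11: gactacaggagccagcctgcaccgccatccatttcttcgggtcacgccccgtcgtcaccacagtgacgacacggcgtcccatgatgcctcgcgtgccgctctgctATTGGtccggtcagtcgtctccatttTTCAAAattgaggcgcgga
Birc5: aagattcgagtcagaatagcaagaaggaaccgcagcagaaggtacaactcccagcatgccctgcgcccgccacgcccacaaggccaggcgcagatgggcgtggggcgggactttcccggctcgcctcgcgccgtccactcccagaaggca
These stretches lie at chr4:118437344-118437493 on the minus strand for Cdc20, chr2:164769779-164769928 on the plus strand for Ube2c, chr10:69352913-69353062 on the minus strand for Cdk1, chr19:37376232-37376381 on the plus strand for Kif11 and chr11:117849087-117849236 on the plus strand for Birc5.

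A window from 250 bases before to 50 bases after the start was matched for 38 of the 45 genes, in 40 windows. TTTGAA stood on either strand in the windows of 29 of the 38 genes (76.3%), against 20.2% of the 27025 genes of the promoter table. CCAAT stood in those of 27 genes (71.1%, against 41.1% of all genes), and both in those of 24 (63.2%, against 7.97%). The 2 motifs can share at most 1 base at their ends. Of the 37 distinct TTTGAA sites, 28 began within 60 bases of a start; the overlapping windows of Ect2 and Prc1 share sites, which are counted once. The motifs were common in other mitosis genes too, with TTTGAA in 25 of 47 (53.2%) and CCAAT in 33 (70.2%). Of 24 genes of DNA replication and entry into S phase, 3 had TTTGAA and 15 had CCAAT, and of 12 subunits of the APC/C and its activator Fzr1, 1 and 5. Letters in a window are a description of the sequence and not a measured binding site.

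Levels are given as the log2 processed signal minus the log2 of the array's 75th percentile, so a level of 0 equals that percentile, and levels are compared between arrays for 1 gene and not between genes. LF_LF stood apart from the other 3 groups for nearly all of these genes. Both LF_LF arrays were above every other array for 33 of the 44 tested genes, against 10.3% of all tested genes, and for 42 of 44 when LF_HF replicate 1 was left out, against 15.3%. The exceptions then were Pttg1 and Bub1. The filter itself lifts such counts: 16 of the 44 passed only because both LF_LF arrays were well above background, and those genes had to differ from the rest. Of the 21 that were well above background on all 8 arrays, which that filter step does not favour, 19 had both LF_LF arrays on top, against 9.73% of the 13722 such genes. All 44 were well above background on each LF_LF array, against 30 on each VAD_VAD array, 27 and 24 in BD_HF, and 37 and 22 in LF_HF. For 16 of the 44 the LF_LF part of that count was fixed by the filter. Over all gene spots the shares were 64.7% and 64.6% in LF_LF, 57.6% to 63.0% in VAD_VAD and BD_HF, and 88.4% and 58.0% in LF_HF.

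**Figure D1:**
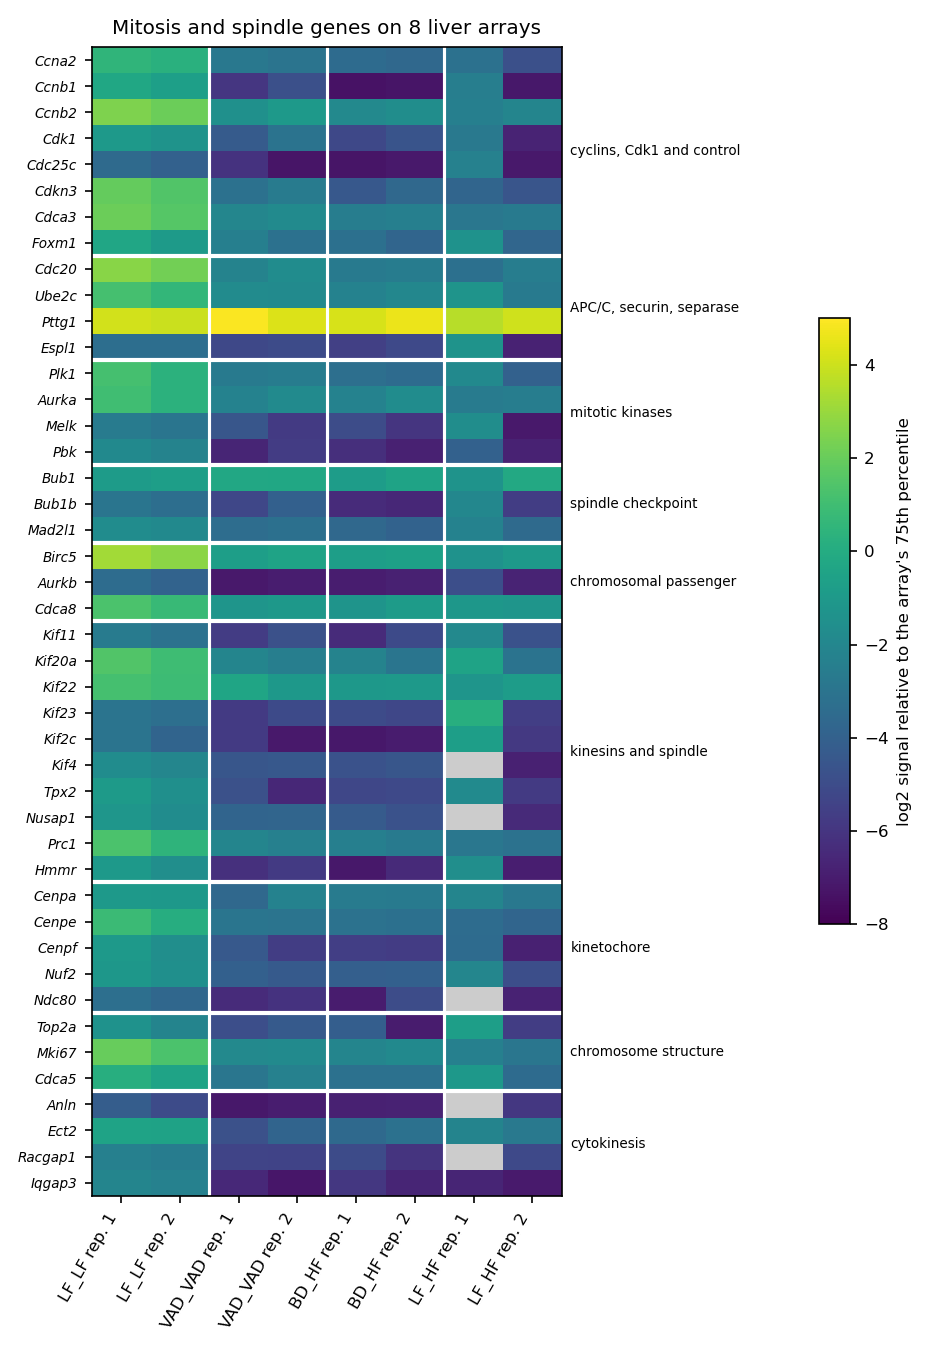
Log2 signal relative to the 75th percentile of each array (colour) for the 44 tested genes (rows, by role) on the 8 arrays (columns); grey marks 5 genes with no value on LF_HF replicate 1, and colours are to be compared along a row. The 2 LF_LF columns are the brightest of their row except where Pttg1, Bub1 or LF_HF replicate 1 is as bright or brighter.

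LF_HF replicate 1 differed from the other 7 arrays in its technical readings. It had 2707 outlier spots against 46 to 316, 88.4% of its spots well above background against 57.6% to 64.7%, a 75th percentile of 496 against 195 to 296, and its header gave another extraction status. Of the 39 genes of the list with a value on both LF_HF arrays, 31 were higher on replicate 1 than on replicate 2. Over all genes the share was 42.1%, but it was 82.5% among genes that were well above background on fewer than 8 arrays, and 18 of 18 such genes of the list were higher on it. Every comparison shares 1 estimate of the spread, so the array touches all of them, and for most genes a call that changes without it is given beside the result. All replicate 1 samples were on slide 1 and all replicate 2 samples on slide 2, and each group took the same position on both slides, so position and diet cannot be told apart. Marker genes of hepatocytes were well above background on every array (9 of the 10 listed were tested), which fits the labelled tissue.

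Against LF_LF, 17 of the 44 genes were lower in LF_HF, 13 in VAD_VAD and 20 in BD_HF, and 0 were higher in any of the 3 comparisons (limma, Benjamini-Hochberg adjusted p under 0.05). Over all genes, 1.88%, 0.527% and 1.06% were lower by the same rule and 0.62%, 0.104% and 0.458% higher. The 3 comparisons share the same 2 LF_LF arrays, so a high or low value there enters all of them. The median difference over the 44 genes was −2.80 in LF_HF, −2.90 in VAD_VAD and −3.29 in BD_HF on the log2 scale, against medians over all genes of −0.02, 0.09 and 0.11. At an unadjusted p under 0.05, 32, 34 and 39 were lower and 0 were higher. Of all 17267 tested genes, 1609, 1065 and 1259 were lower and 1264, 708 and 952 higher by that rule. Among genes that passed the filter through LF_LF alone, 2.73%, 2.73% and 4.1% were called lower, and of the 16 genes of the list in that class 1, 1 and 3 were.

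The number of calls, among the 44 genes and among all genes, depends on single arrays. Shares over all genes are given here only for the fit without LF_HF replicate 1 and for fits that gave 0. Without LF_HF replicate 1, 38, 37 and 40 of the 44 were lower in LF_HF, VAD_VAD and BD_HF than in LF_LF, against 8.7%, 3.96% and 6.32% of all genes, and they included all of the 17, 13 and 20 called above. With 1 LF_LF array left out, the LF_HF count was 0 without replicate 1 and 8 without replicate 2, and the VAD_VAD and BD_HF counts were 0. Without either BD_HF array the counts were 13, 0 and 0, and without either VAD_VAD array they were 13, 0 and 10. In each fit that gave 0, 0 of all genes were called lower, so that 0 is not particular to the 44. Within slide 2, 42 of the 44 differences were negative in every one of the 3 comparisons, and within slide 1, 42 of 44 were negative for VAD_VAD and BD_HF and 31 of the 39 with a value for LF_HF. The shares of negative differences over all genes are not given, and the filter favoured that sign for the 16 genes that passed through LF_LF alone.

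**Figure D2:**
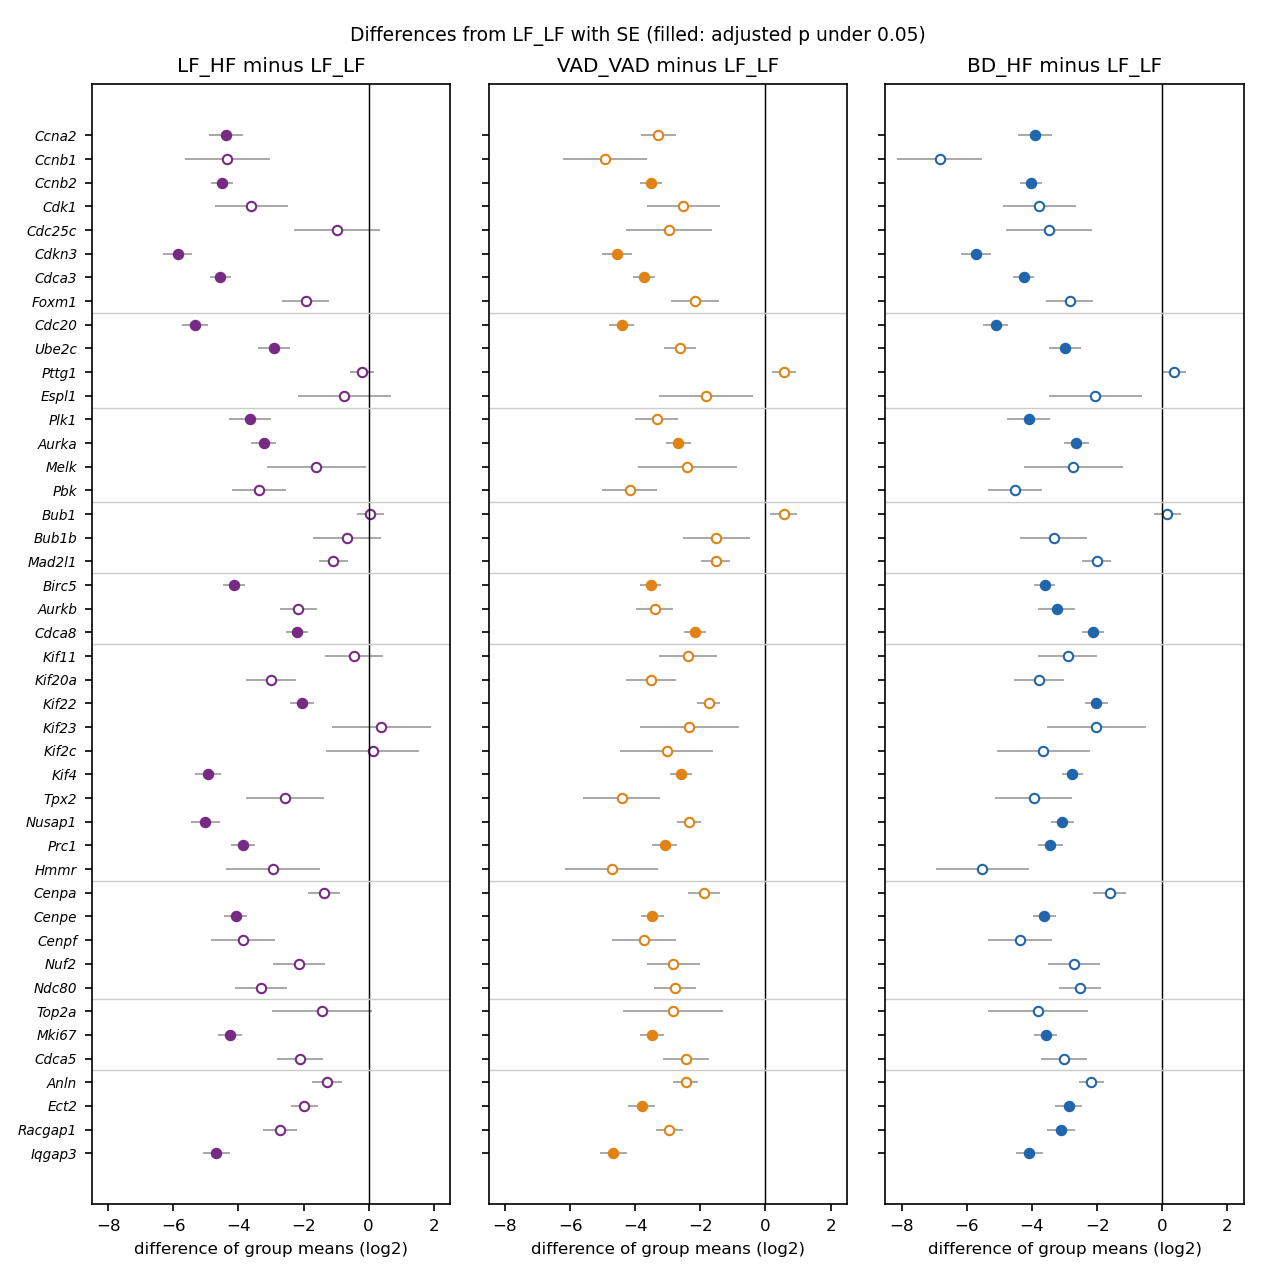
Difference of group means on the log2 scale (point) with its SE (bar) for the 44 genes in LF_HF, VAD_VAD and BD_HF, each against the same 2 LF_LF arrays; filled points have an adjusted p under 0.05. Filled points number 17, 13 and 20 and all lie to the left of 0.

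Among the cyclins and the genes that control Cdk1, Ccnb2, Cdkn3 and Cdca3 were lower in all 3 groups than in LF_LF. Of the 8 cyclin and Cdk1 genes, 4 were lower in LF_HF, 3 in VAD_VAD and 4 in BD_HF. Ccnb2, which encodes cyclin B2, a partner of Cdk1, had levels of 2.48 and 2.08 in LF_LF, −1.46 and −1.01 in VAD_VAD, −1.89 and −1.62 in BD_HF, and −2.38 and −2.08 in LF_HF. No array of the other groups came within the LF_LF pair. It was 22.8-fold lower in LF_HF (log2 difference −4.51, SE 0.339, adjusted p = 0.00337), 11.4-fold in VAD_VAD (adjusted p = 0.0159) and 16.4-fold in BD_HF (adjusted p = 0.00600).

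Cdkn3, a phosphatase that acts on cyclin-dependent kinases, showed the largest measured fold of the genes well above background on 8 arrays. Its levels were 1.92 and 1.46 in LF_LF, −3.14 and −2.60 in VAD_VAD, −4.44 and −3.61 in BD_HF, and −3.76 and −4.58 in LF_HF. The VAD_VAD pair lay below LF_LF and above the other 4 arrays. The log2 difference was −5.87 in LF_HF (SE 0.454, adjusted p = 0.00370, 58.3-fold), −4.56 in VAD_VAD (adjusted p = 0.0168, 23.6-fold) and −5.72 in BD_HF (adjusted p = 0.00600, 52.6-fold). A second kept Cdkn3 probe had 0.37 on LF_HF replicate 1, between its LF_LF levels of 0.49 and 0.12, and −4.84 on replicate 2. By that probe the differences were −2.54, −4.12 and −4.87 in LF_HF, VAD_VAD and BD_HF.

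Cdca3, an adaptor that helps to degrade the mitosis inhibitor Wee1, had levels of 2.06 and 1.57 in LF_LF against −2.05 and −1.78 in VAD_VAD, −2.51 and −2.37 in BD_HF, and −2.87 and −2.62 in LF_HF. Its replicates lay close together and no pair of groups overlapped. It was 23.6-fold lower in LF_HF, 13.3-fold in VAD_VAD and 19.1-fold in BD_HF (adjusted p = 0.00337, 0.0153 and 0.00600). By a second kept Cdca3 probe the log2 differences were smaller, at −2.14, −2.88 and −3.49, with −1.27 and −3.54 on the LF_HF arrays.

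The kinase itself and its best known partner did not pass. Cdk1 had levels of −0.96 and −1.30 in LF_LF, −4.26 and −3.04 in VAD_VAD, −5.18 and −4.62 in BD_HF, and −2.76 and −6.71 in LF_HF. The gap between the 2 LF_HF arrays gave an SE of 1.12 for each difference, and the adjusted p was 0.171, 0.509 and 0.201 in LF_HF, VAD_VAD and BD_HF. Without LF_HF replicate 1 these were 0.00369, 0.0271 and 0.00572. Ccnb1, cyclin B1, had levels of −0.26 and −0.68 in LF_LF and −7.37 and −7.25 in BD_HF, where it was not well above background and at least 23.1-fold lower, with an adjusted p of 0.0571. Ccna2, cyclin A2, was 20.9-fold lower in LF_HF (adjusted p = 0.0122) and 15.0-fold lower in BD_HF (adjusted p = 0.0225), and its VAD_VAD difference of −3.28 had an adjusted p of 0.0524. Foxm1, a transcription factor that drives many genes of this list, had differences of −1.94, −2.17 and −2.85, with adjusted p of 0.247, 0.343 and 0.144. Cdc25c, the phosphatase that activates Cdk1, was not called either. All 8 genes of this role were called lower in all 3 comparisons without LF_HF replicate 1.

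**Figure D3:**
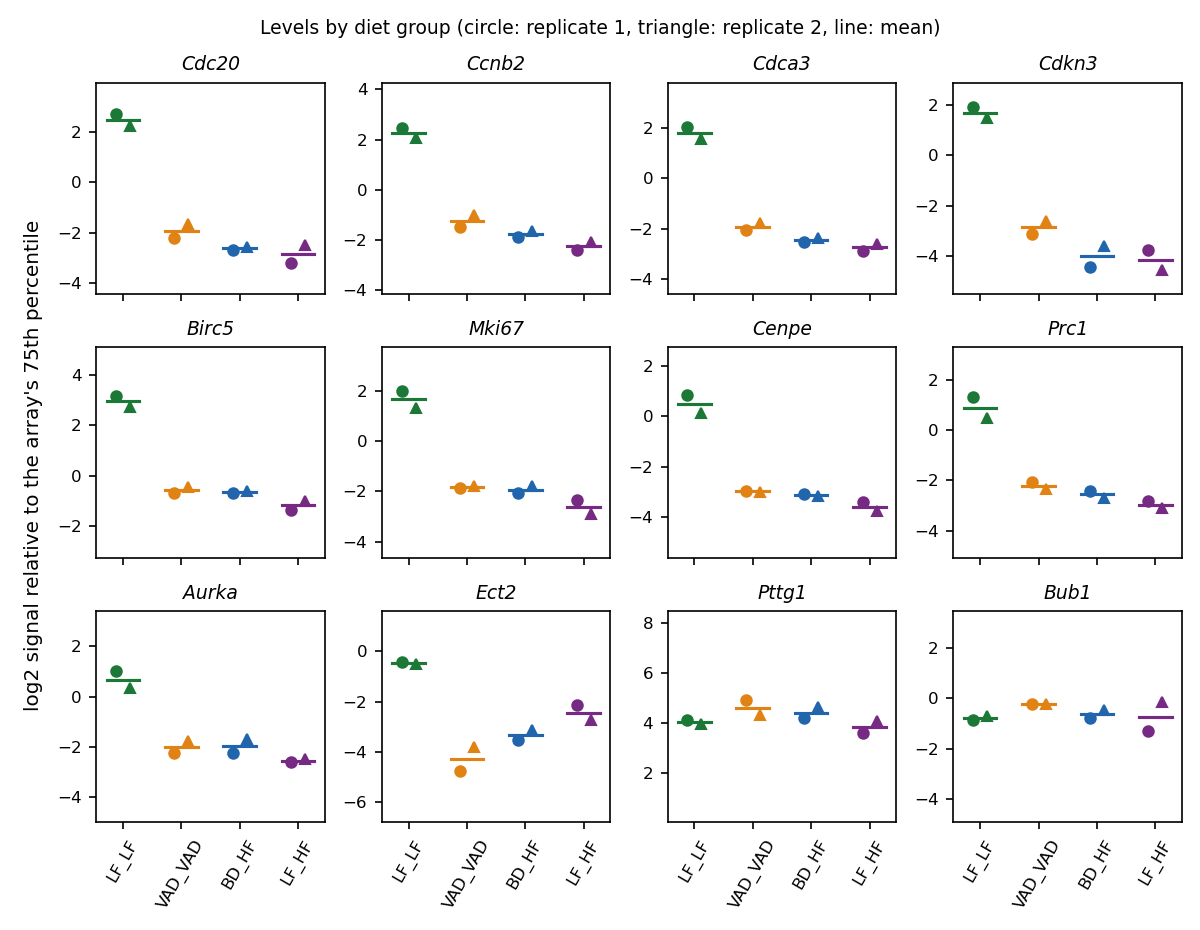
Levels of 12 genes (log2 signal relative to the 75th percentile of the array) in the 4 diet groups, with circles for replicate 1, triangles for replicate 2 and a line at the mean; each panel spans the same range of log2 units. In 10 panels both LF_LF points lie above all others, and in the Pttg1 and Bub1 panels the groups overlap.

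In the machinery that ends mitosis, the activator and the ubiquitin-conjugating enzyme of the APC/C were called lower than in LF_LF, and securin was not called. Cdc20, which switches the APC/C on, had levels of 2.71 and 2.26 in LF_LF, −2.20 and −1.67 in VAD_VAD, −2.71 and −2.55 in BD_HF, and −3.21 and −2.48 in LF_HF (probe at mm9 chr4:118105536-118105595). Every array outside LF_LF was at least 3 units below both LF_LF arrays. The fold was 40.2 in LF_HF, 21.4 in VAD_VAD and 34.6 in BD_HF (SE 0.388 on the log2 scale, adjusted p = 0.00337, 0.0153 and 0.00600).

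Ube2c, the conjugating enzyme, had levels of 1.16 and 0.63 in LF_LF, −1.71 and −1.77 in VAD_VAD, −2.23 and −1.98 in BD_HF, and −1.29 and −2.71 in LF_HF. It was 7.43-fold lower in LF_HF (adjusted p = 0.0329) and 8.0-fold lower in BD_HF (adjusted p = 0.0367). In VAD_VAD the difference was −2.63 with an adjusted p of 0.0813, which became 0.00512 without LF_HF replicate 1.

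Pttg1, securin, which keeps separase inactive, had levels of 4.12 and 3.95 in LF_LF, 4.92 and 4.31 in VAD_VAD, 4.19 and 4.64 in BD_HF, and 3.59 and 4.08 in LF_HF. LF_LF lay inside the range of the other arrays, and the differences were −0.21, 0.58 and 0.37 (SE 0.370, adjusted p = 0.833, 0.678 and 0.785 in LF_HF, VAD_VAD and BD_HF). It was measured by 1 kept probe, at mm9 chr11:43233801-43233860, and was not called without LF_HF replicate 1 either. Espl1, separase itself, was dim, with levels of −3.28 on both LF_LF arrays, and was called in all 3 comparisons only without LF_HF replicate 1 (adjusted p = 0.00280, 0.0113 and 0.00569).

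Of the 4 mitotic kinases, 2 were lower in LF_HF and BD_HF and 1 in VAD_VAD. Aurka, which matures the spindle poles, had levels of 1.01 and 0.36 in LF_LF, −2.23 and −1.76 in VAD_VAD, −2.25 and −1.67 in BD_HF, and −2.60 and −2.49 in LF_HF. The other groups sat close to each other and below both LF_LF arrays. It was 9.37-fold lower in LF_HF, 6.42-fold in VAD_VAD and 6.26-fold in BD_HF (adjusted p = 0.0119, 0.0399 and 0.0263), and with the slide as a block the VAD_VAD call was lost.

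Plk1, a kinase needed from mitotic entry to the end of division, had levels of 1.16 and 0.34 in LF_LF, −2.64 and −2.55 in VAD_VAD, −3.24 and −3.47 in BD_HF, and −1.84 and −3.94 in LF_HF. It was 12.5-fold lower in LF_HF (adjusted p = 0.0375) and 17.1-fold lower in BD_HF (adjusted p = 0.0342), and the VAD_VAD difference of −3.34 had an adjusted p of 0.0934. Melk and Pbk, kinases found in dividing cells, passed the filter through LF_LF alone and were not called. All 4 mitotic kinases were called lower in all 3 comparisons without LF_HF replicate 1.

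The spindle checkpoint was the role with no call while both LF_HF arrays were in the fit. Bub1, a checkpoint kinase at the kinetochore, was measured by 2 kept probes that disagreed. The probe with the higher mean, at mm9 chr2:127626326-127626385, had levels of −0.85 and −0.72 in LF_LF, −0.21 and −0.24 in VAD_VAD, −0.80 and −0.47 in BD_HF, and −1.30 and −0.16 in LF_HF. It showed no separation of LF_LF, with differences of 0.05, 0.55 and 0.15 and adjusted p from 0.715 to 0.969.

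The other Bub1 probe, at mm9 chr2:127626988-127627047, was well above background on 3 arrays, both of LF_LF and LF_HF replicate 1. Its levels were −2.62 and −2.80 in LF_LF, −2.18 on LF_HF replicate 1, and −6.88 to −7.27 on the other 5 arrays, so its arrays took the order seen in Kif23. Which of the 2 probes follows the Bub1 transcript was not tested. Bub1b, a checkpoint protein of the same family, had differences of −0.67, −1.51 and −3.33, and Mad2l1, which inhibits Cdc20 while chromosomes are unattached, −1.09, −1.53 and −2.01. Neither passed with both LF_HF arrays, and the smallest adjusted p was 0.0945, for Mad2l1 in BD_HF. With LF_HF replicate 1 left out, Mad2l1 was called lower in all 3 (adjusted p = 0.0134, 0.0160 and 0.00516) and Bub1b in LF_HF and BD_HF (0.0274 and 0.00680).

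All 3 genes of the chromosomal passenger complex, which corrects faulty attachments and starts cytokinesis, were lower in BD_HF, and 2 of 3 in LF_HF and VAD_VAD. Birc5, survivin, had levels of 3.18 and 2.74 in LF_LF, −0.70 and −0.44 in VAD_VAD, −0.70 and −0.60 in BD_HF, and −1.35 and −1.0 in LF_HF. VAD_VAD and BD_HF overlapped and both LF_HF arrays were lower. It was 17.6-fold lower in LF_HF, 11.5-fold in VAD_VAD and 12.2-fold in BD_HF (adjusted p = 0.00386, 0.0153 and 0.00744).

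Cdca8, borealin, had levels of 1.32 and 0.76 in LF_LF and between −1.28 and −0.87 on the other 6 arrays. It was 4.59-fold, 4.51-fold and 4.34-fold lower in LF_HF, VAD_VAD and BD_HF (adjusted p = 0.0258, 0.0481 and 0.0342), and the VAD_VAD call was lost with the slide as a block. A second kept Cdca8 probe had −1.18 on LF_HF replicate 1, above its LF_LF levels of −1.47 and −2.48, and −4.09 on replicate 2. By that probe the differences were −0.66, −2.30 and −1.96. Aurkb, the kinase of the complex, was well above background only in LF_LF, at −3.42 and −3.84. It was at least 2.59-fold lower in BD_HF (adjusted p = 0.0448). The bounds for LF_HF and VAD_VAD were 2.05-fold and 2.81-fold, with adjusted p of 0.113 and 0.0609, and both were called without LF_HF replicate 1 (0.00369 and 0.00230).

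Of the 10 kinesin and spindle genes, 4 were lower in LF_HF, 2 in VAD_VAD and 4 in BD_HF. Prc1, which bundles microtubules in the middle of the spindle, had levels of 1.31 and 0.46 in LF_LF, −2.08 and −2.34 in VAD_VAD, −2.41 and −2.70 in BD_HF, and −2.83 and −3.12 in LF_HF. The 3 groups followed that order with no overlap between their arrays. It was 14.5-fold lower in LF_HF, 8.55-fold in VAD_VAD and 10.8-fold in BD_HF (adjusted p = 0.00592, 0.0262 and 0.0119).

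Kif22, a motor that pushes chromosome arms towards the spindle middle, had levels of 1.14 and 0.91 in LF_LF, −0.35 and −1.09 in VAD_VAD, −1.05 and −0.95 in BD_HF, and −1.22 and −0.81 in LF_HF. The 6 arrays outside LF_LF covered 1 common range. It was 4.11-fold lower in LF_HF (adjusted p = 0.0370) and 4.07-fold lower in BD_HF (adjusted p = 0.0482), and both calls were lost with the slide as a block.

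Nusap1, a protein that stabilises spindle microtubules, had levels of −1.15 and −1.69 in LF_LF, −3.80 and −3.74 in VAD_VAD, −4.26 and −4.72 in BD_HF, and −6.44 on LF_HF replicate 2, with no value on replicate 1. It was at least 10.9-fold lower in LF_HF (adjusted p = 0.00710, from 1 array that is assumed to vary as the other groups do) and 8.37-fold lower in BD_HF (adjusted p = 0.0219). In VAD_VAD it had a difference of −2.35 and an adjusted p of 0.0640, or 0.00928 without LF_HF replicate 1. Kif4, a kinesin that binds chromosomes, was at least 8.07-fold lower in LF_HF, again from 1 array, 6.05-fold lower in VAD_VAD and at least 6.79-fold lower in BD_HF (adjusted p = 0.00525, 0.0399 and 0.0223), and the VAD_VAD call was lost with the slide as a block. A second kept Kif4 probe had a value on LF_HF replicate 1, of −0.72, above its LF_LF levels of −3.28 and −3.36, and −5.32 on replicate 2. Its differences were 0.30, −3.41 and −3.05, so the LF_HF call of Kif4 rests on the probe that has no value on that array.

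Kif23 and Kif2c, a kinesin of the central spindle and one that takes microtubules apart, were among the genes on which LF_HF replicate 1 had much weight, with Melk, Espl1 and Hmmr. Kif23 had levels of −2.97 and −3.25 in LF_LF, 0.13 on LF_HF replicate 1, −5.58 on LF_HF replicate 2, and −5.02 to −5.81 on the remaining 4 arrays. Kif2c had levels of −3.01 and −3.82 in LF_LF, −0.71 and −5.86 in LF_HF, −5.78 and −7.12 in VAD_VAD, and −7.14 and −7.0 in BD_HF. In both genes LF_HF replicate 1 was the highest array and replicate 2 was below LF_LF with the rest.

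The LF_HF minus LF_LF difference was 0.39 for Kif23 and 0.13 for Kif2c with both LF_HF arrays (adjusted p = 0.930 and 0.975), and −2.47 and −2.44 without replicate 1 (adjusted p = 0.0112 and 0.0488). Hmmr, Tpx2, Kif11 and Kif20a, which organise spindle microtubules or slide them apart, had LF_HF differences from −2.99 to −0.45 that were not called with both arrays. Without replicate 1 Hmmr, Tpx2 and Kif20a were called in all 3 comparisons, and Kif11 in BD_HF only.

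**Figure D4:**
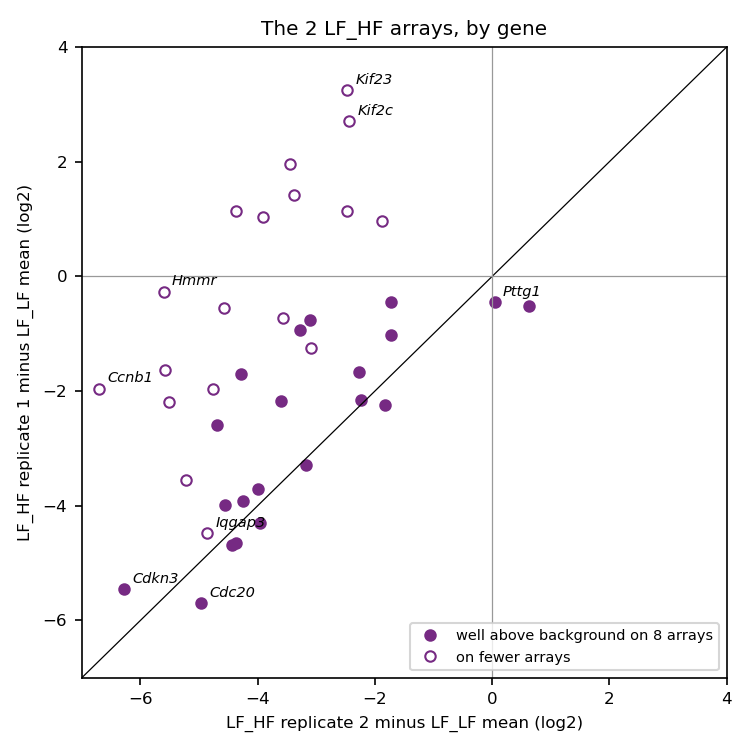
Log2 difference from the LF_LF mean on LF_HF replicate 2 (x axis) and replicate 1 (y axis) for the 39 genes with a value on both, with filled points for the 21 genes well above background on 8 arrays; the diagonal marks equal values. All 18 open points and 13 of the 21 filled points lie above the diagonal, and Kif23 and Kif2c are the highest points.

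Of the 5 kinetochore genes, 1 was lower in each comparison. Cenpe, a kinesin that carries chromosomes along the spindle, had levels of 0.87 and 0.12 in LF_LF, −2.95 and −3.01 in VAD_VAD, −3.08 and −3.18 in BD_HF, and −3.42 and −3.75 in LF_HF. The VAD_VAD and BD_HF arrays lay within 0.3 units of each other. It was 16.9-fold lower in LF_HF, 11.1-fold in VAD_VAD and 12.3-fold in BD_HF (adjusted p = 0.00473, 0.0168 and 0.00863). Cenpa, the histone that marks the centromere, and Cenpf, Nuf2 and Ndc80, which link it to microtubules, had differences from −4.36 to −1.38 in the 3 comparisons and were not called. With LF_HF replicate 1 left out, Cenpf and Nuf2 were called lower in all 3, Ndc80 in LF_HF (adjusted p = 0.0385, from 1 array in either fit) and Cenpa in none.

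Among the 3 genes of chromosome structure, Mki67, the marker of cycling cells that coats mitotic chromosomes, was lower in all 3 comparisons. Its levels were 1.97 and 1.33 in LF_LF, −1.87 and −1.80 in VAD_VAD, −2.06 and −1.81 in BD_HF, and −2.34 and −2.90 in LF_HF. VAD_VAD and BD_HF overlapped and LF_HF lay below both. It was 19.3-fold lower in LF_HF, 11.2-fold in VAD_VAD and 12.0-fold in BD_HF (adjusted p = 0.00473, 0.0168 and 0.00864). Top2a, which untangles chromosomes, and Cdca5, which protects their cohesion, had differences from −3.81 to −1.43 and were not called. Cdca5 was called in all 3 without LF_HF replicate 1, and Top2a in BD_HF only.

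Of the 4 cytokinesis genes, 1 was lower in LF_HF, 2 in VAD_VAD and 3 in BD_HF. Ect2, the exchange factor that triggers the contractile ring, had levels of −0.45 and −0.50 in LF_LF, −4.76 and −3.79 in VAD_VAD, −3.54 and −3.15 in BD_HF, and −2.14 and −2.75 in LF_HF. The VAD_VAD arrays were the lowest and the LF_HF arrays lay nearest to LF_LF. It was 14.0-fold lower in VAD_VAD (adjusted p = 0.0178) and 7.33-fold lower in BD_HF (adjusted p = 0.0274), and its LF_HF difference of −1.98 had an adjusted p of 0.0627. VAD_VAD minus LF_HF was −1.83 for Ect2, with an adjusted p of 0.226.

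Iqgap3, a scaffold at the cell cortex found in dividing cells, was well above background only in LF_LF, at −2.09 and −2.30, with −5.89 to −7.22 on the other 6 arrays. It was at least 5.54-fold lower in LF_HF, 7.61-fold in VAD_VAD and 7.0-fold in BD_HF (adjusted p = 0.00473, 0.0153 and 0.00863). Racgap1, the partner of Kif23 in the central spindle, had levels of −2.32 and −2.53 in LF_LF and −5.01 to −6.05 on the 5 other arrays with a value. It was 8.62-fold lower in BD_HF, where 1 of 2 arrays was well above background (adjusted p = 0.0296). The bounds were 5.44-fold in LF_HF and 6.49-fold in VAD_VAD, with adjusted p of 0.0574 and 0.0509. Anln, anillin of the contractile ring, was not called. In the fit without LF_HF replicate 1, Ect2, Racgap1 and Iqgap3 were called lower in all 3 comparisons, and Anln in VAD_VAD and BD_HF.

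In all, 20 of the 44 genes were called lower in at least 1 comparison with LF_LF, and 12 in all 3, against 0.382% of all genes. The 12 were Ccnb2, Cdkn3, Cdca3, Cdc20, Aurka, Birc5, Cdca8, Kif4, Prc1, Cenpe, Mki67 and Iqgap3. Since the comparisons use the same LF_LF arrays, this count does not stand for separate observations, and it includes Kif4, whose LF_HF arm is 1 array and whose 2 probes disagree there. The count also includes Cdkn3 and Cdca8, whose second kept probes had LF_HF replicate 1 within or above the LF_LF levels. Iqgap3 among the 12, and also Aurkb and Racgap1 among the 20, passed the filter through LF_LF alone. For these genes the filter itself favoured a lower level in the other groups. Without LF_HF replicate 1, which leaves 1 array in LF_HF, the median LF_HF difference was −3.76. Most of the 44 genes were then called in all 3, and Pttg1, Bub1 and Cenpa in none. Those called include genes that passed the filter through LF_LF alone, a class of 16 of the 44. The share of all genes called in all 3 in that fit is not given.

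The summed signal of 37 genes with a value on every array, leaving out Pttg1 and Bub1, was 61.5 and 43.7 times the 75th percentile in LF_LF. It was 5.46 and 5.87 in VAD_VAD, 4.46 and 4.76 in BD_HF, and 10.6 and 3.80 in LF_HF. Pttg1 and Bub1 were left out after it was seen that they did not separate LF_LF. With them kept in, the sum over 39 genes was 79.5 and 59.8 in LF_LF and 21.6 to 36.7 on the other arrays. LF_LF replicate 1 was higher than replicate 2 for 43 of the 44 genes, and the share over all genes is not given. In liver RNA as a whole, fewer dividing cells and less of these transcripts per cell cannot be told apart.

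The 3 other groups were compared with each other in 2 pairs. In BD_HF minus LF_HF, which compares 2 maternal diets under the same high fat diet, 0 of 44 genes were called in either direction, against 0.00579% of all genes lower and 0% higher. At an unadjusted p under 0.05, 3 were lower and 2 higher, against 450 and 480 of all 17267 tested genes. In VAD_VAD minus LF_HF 0 were called, against 0.0579% lower and 0.0232% higher. By the unadjusted rule 2 were lower and 6 higher, against 838 and 967 of all tested genes. Without LF_HF replicate 1, Ccna2, Kif4 and Nusap1 were higher in VAD_VAD than in LF_HF, by 1.95, 2.34 and 2.67 on the log2 scale (adjusted p = 0.0350, 0.0291 and 0.0291, against 1.2% of all genes called higher). In that fit LF_HF is replicate 2 alone, where Kif4 (−6.79) and Nusap1 (−6.44) were not well above background (array floor −4.87). A second kept Kif4 probe, also dim there, went the other way, with −7.04 and −6.43 in VAD_VAD against −5.32. With LF_HF replicate 1 as the only LF_HF array, some genes were called lower in BD_HF and VAD_VAD than in LF_HF. Of all genes not well above background on every array, 82.5% were higher on replicate 1 than on replicate 2. Those calls cannot be read as particular to the list. The VAD_VAD mean was above the BD_HF mean for 33 of the 44 genes, and that difference was not tested. Of the 44, 30 were well above background on each VAD_VAD array and 27 and 24 on the BD_HF arrays. Part of that order is therefore among signals near the floor, and the share over all genes is not given.

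Other genes of the cell cycle were read from 4 further lists. Of 56 tested genes of mitosis outside the 45, 7 were lower in LF_HF, 6 in VAD_VAD and 8 in BD_HF than in LF_LF, and 0 were higher, with medians of −1.18, −2.0 and −2.09. Knstrn, a kinetochore and spindle protein, and Oip5, which helps to load Cenpa, were well above background only in LF_LF and passed the filter through LF_LF alone. Knstrn was at least 12.2-fold, 14.3-fold and 15.4-fold lower (adjusted p = 0.00473, 0.0230 and 0.00792). The bounds for Oip5 were 5.8-fold, 6.9-fold and 6.4-fold (adjusted p = 0.0168 in VAD_VAD and 0.0118 in BD_HF). Oip5 had no value on LF_HF replicate 1, so its LF_HF bound comes from 1 array. Shcbp1, which binds the central spindle, and Ncapg, a condensin subunit, were lower in all 3 as well.

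The subunits of the APC/C and Fzr1 had smaller differences than Cdc20 and Ube2c, with medians of −0.50, −0.19 and −0.15, against −0.02, 0.09 and 0.11 over all genes. Of these 13 genes, 13, 8 and 7 differences were negative. In any of the 3 comparisons 0 of 13 were called, against 1.88%, 0.527% and 1.06% of all genes called lower. With shares that small, 0 of 13 says little about these genes. At the step before mitosis, the 29 tested genes of replication and S-phase entry had medians of −0.86, −0.63 and −0.95. Mcm3 and Mcm6, of the replicative helicase, were lower in LF_HF (−1.63 and −2.30, adjusted p = 0.0358 and 0.0330) and did not pass in the other 2 comparisons, a difference that was not tested. Of 15 cell cycle inhibitors and members of the repressor complexes, 1 was lower in LF_HF, Cdkn2c, an inhibitor of the G1 kinases (−2.14, adjusted p = 0.0329), and 0 in the others.

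**Figure D5:**
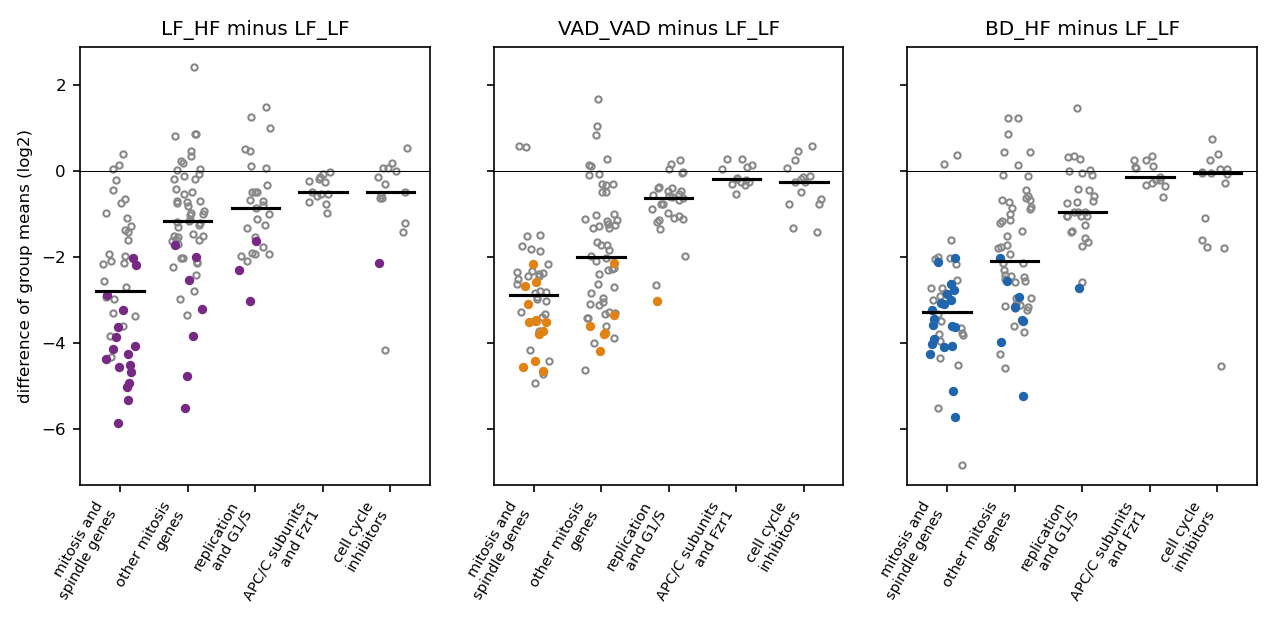
Log2 difference of each tested gene from LF_LF (points, filled where the adjusted p is under 0.05) in LF_HF, VAD_VAD and BD_HF for the 44 mitosis and spindle genes and 4 other cell cycle lists of 56, 29, 13 and 15 genes; horizontal lines are medians. The medians of the 44 genes lie between −3.29 and −2.80 and those of the APC/C subunits between −0.50 and −0.15.

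Markers of some other liver cells were also highest in LF_LF. The summed signal of 9 stellate cell and fibroblast markers was 206 and 177 in LF_LF against 64.1 to 138 on the other arrays, that of 10 Kupffer cell and macrophage markers 183 and 167 against 64.9 to 129, and that of 6 bile duct markers 18.7 and 27.4 against 6.51 to 11.8. Of 10 stellate markers, 3 were lower than LF_LF in LF_HF, 5 in VAD_VAD and 3 in BD_HF, among them Col1a1, a chain of type I collagen, by −4.67, −3.81 and −4.01 (adjusted p = 0.00473, 0.0168 and 0.00863). Cd68 and Lyz2, of macrophages, and Krt19 and Spp1, of bile ducts, were lower in LF_HF, and Krt23, of bile ducts, in VAD_VAD. Timd4, of Kupffer cells, was higher in BD_HF, and S100a8, of neutrophils, in VAD_VAD. Sums are carried by the brightest probes: of the 10 macrophage markers, 7 differences were negative in LF_HF, 7 in VAD_VAD and 5 in BD_HF (medians −1.12, −0.36 and −0.27), against 8, 9 and 8 of the 10 stellate markers and 5, 7 and 6 of the 7 tested bile duct markers. The sums for hepatocyte, lymphocyte, neutrophil, erythroid and endothelial markers in LF_LF lay within the range of the other arrays. No defining marker can be said to be at 0 on an intensity scale, and 1 of the 9 stellate, 0 of the 10 macrophage and 1 of the 6 bile duct markers were not well above background on every array. The part of these cells in the result for the mitosis genes was not tested.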

How the data were processed

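Per the file headers, the authors scanned the 8 Agilent arrays and extracted signals with Feature Extraction, version 10.7.3.1. The processed signal in the deposited files is an intensity, background-handled and detrended within its array, and no scaling between arrays is recorded. Limma is listed in the submitters' processing notes. The deposited series table held the same intensity, rounded. Here, outlier spots were left out, spots of a probe averaged, log2 taken and each array's 75th percentile subtracted. Of 41174 gene probes, 26224 were well above background on 2 of 2 arrays in some group, and the probe with the highest mean stood for its gene. The comparisons used lmFit and eBayes of limma 3.58.1 in R 4.3.3 on all 8 arrays, with 4 residual and 3.43 prior degrees of freedom and Benjamini-Hochberg adjustment over all genes. A group with no array well above background gets a bound on its fold, from the lowest signal well above background on each array, or the probe's own signal where higher. Scripts were tested on simulated data. Probe positions are in mm9, and the promoters, from GRCm38.p6, were used for sequence alone. Values on every array are given for genes called in a comparison, up to 3 per role, those above background on most arrays first, and for genes where LF_LF was not highest; further genes were named after their values were seen. The genes and lists were chosen with earlier results of these data known. The slide (replicate number) is a batch in the file headers, and deviations of same-numbered samples from their group means correlated at 0.098 to 0.305. The number of arrays limits the precision. Alternatives are in the closing section. Tables and plots used pandas 2.3.3 and matplotlib 3.10.9 in Python 3.11.15. One gene of the replication list is not reported here.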

Additional observations from a re-analysis of the deposited data

How the results depend on the processing

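Counts of genes lower than LF_LF are given in the order LF_HF, VAD_VAD, BD_HF, against 17, 13 and 20 of 44. Except where 0 of all genes is stated, the shares over all genes under these alternatives are not given here. A change in a count can therefore not be told apart from a change over the whole array. Normexp background correction gave 21, 22 and 24, quantile normalization 23, 8 and 15, the values of the deposited series table gave 17, 13 and 21, trended and robust variances 20, 17 and 24, and the mean of the kept probes 13, 10 and 13. Without the filter on dim probes they were 8, 0 and 0 of 45 (0 of all genes were called in the last 2, and 32 and 35 of the 45 were lower at an unadjusted p under 0.05 by limma). With genes well above background on all 8 arrays they were 15, 14 and 18 of 21. With the replicate number, which is the slide, as a block they were 16, 10 and 20, and the block cost the calls of Kif22 in LF_HF and BD_HF and of Aurka, Cdca8 and Kif4 in VAD_VAD. Leaving out 1 array at a time gave 0 to 38, 0 to 37 and 0 to 40, as given by array in the results, and 0 to 21 for BD_HF minus LF_HF and 0 to 18 for VAD_VAD minus LF_HF. Without both LF_HF arrays, an alternative chosen after seeing the data, VAD_VAD and BD_HF had 37 and 40. BD_HF minus LF_HF and VAD_VAD minus LF_HF had 0 under each of the other alternatives that kept all 8 arrays. The highest counts of these 2 pairs came with LF_HF replicate 1 as the only LF_HF array, and their shares over all genes are not given. The cause of these moves was not tested. Without LF_HF replicate 1 the LF_HF difference changed sign for Kif23, to −2.47, and Kif2c, to −2.44, and for Pttg1, which was not called, from −0.21 to 0.04, and with replicate 1 as the only LF_HF array that of Kif23 was 3.24 and that of Kif2c 2.70. Under normexp, which raises the floor of dim probes by an offset of 50, the medians were −0.82, −1.02 and −1.13, and 34 of 44 LF_HF differences were negative against 41. Fold sizes of dim genes thus depend on how background is handled, and genes not well above background carry only a bound.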
